A study of Mus musculus with 18 samples.

Results

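Testis transcript levels were compared between 2 groups of streptozotocin-treated mice of the outbred ICR strain, aged 10 weeks. In 1 group the label gives STZ + AOS10mg/kg-FMT and in the other STZ + control-FMT. STZ is streptozotocin, which destroys the insulin-making cells of the pancreas and serves to model diabetes. AOS is alginate oligosaccharide, short sugar chains cut from the alginate of brown algae. FMT was read as faecal microbiota transplant, whose donors had received AOS at 10 mg/kg (AOS-FMT) or were control animals (control-FMT). Streptozotocin, strain, age and tissue are shared by both groups, so the donor material is the labelled difference. The comparison was chosen from the labels alone and covers 6 of the 18 libraries of the series, 3 per group, and all 20985 genes of the table. The other libraries, 3 per group, are STZ, STZ + AOS (10 mg/kg), AOS alone (10 mg/kg) and control, the last described no further by the labels. The design text says that the transplant was explored in testis damaged by STZ. Whether each library stands for its own animal is not stated, so the p-values reflect the spread between these samples, which may be technical.

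In the seminiferous tubules of the testis, spermatogonia give rise to meiotic spermatocytes, round spermatids and elongating spermatids, nursed by Sertoli cells. Leydig cells between the tubules make testosterone, and peritubular myoid cells, fibroblasts, macrophages and vessels make up the rest of the tissue. The epididymis, the duct in which sperm mature, adjoins the testis, as does a fat pad. Gut microbes are studied for effects on the testis that could be carried by metabolites, hormones or immune signals in the blood.

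Values were fragments scaled by transcript length and library size (FPKM), as inferred from the table, which names no unit, and the number of reads behind them is unknown. Sums over all genes ran from 591561 to 609157 in AOS-FMT libraries and from 589920 to 607626 in control-FMT libraries. Pearson correlations of log2(FPKM + 1) between libraries ran from 0.9928 to 0.994 within AOS-FMT, from 0.9904 to 0.9921 within control-FMT and from 0.9879 to 0.9942 between the groups. Germ cell genes dominated every library: protamine 1 (Prm1), which packs sperm DNA, lay between 13613.16 and 15122.43 FPKM in AOS-FMT and between 12976.25 and 14590.81 FPKM in control-FMT. The labelled tissue thus had its defining transcripts in all 6 libraries.

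Markers of another tissue, the epididymis, had their highest sums in control-FMT libraries 2 and 3. Crisp1, a cysteine-rich protein that epididymal epithelium secretes onto sperm, was at 0.5, 0.1 and 0.05 FPKM in AOS-FMT libraries 1, 2 and 3 and at 0.99, 255.65 and 33.64 FPKM in control-FMT libraries 1, 2 and 3. Gpx5, an epididymal glutathione peroxidase, was at 0.04, 0 and 0 FPKM in AOS-FMT and at 5.71, 0.38 and 202.92 FPKM in control-FMT. Lcn8, an epididymal lipocalin, was listed at 0 in every AOS-FMT library and stood at 1.3, 0.13 and 70.21 FPKM in control-FMT. Crisp1 was thus highest in control-FMT library 2, and Gpx5 and Lcn8 in control-FMT library 3. Summed over the 13 genes of the epididymis list, the level lay between 305.2 and 317.3 FPKM in AOS-FMT libraries and at 393.8, 639 and 972 FPKM in control-FMT libraries. Most of the AOS-FMT sum came from Cst8, a cystatin, at 255 to 272.01 FPKM. Lcn5, Lcn8, Spink11 and Ovch2 were listed at 0 in all 3 AOS-FMT libraries. Outside the transplant groups, control library 3 held Crisp1 at 158.77 FPKM and had a list sum of 495.6 FPKM. The sum reached 388.1 FPKM in AOS, 379.3 FPKM in STZ and 354 FPKM in STZ + AOS, near that of control-FMT library 1. Cst8, Wfdc10 and Rnase10 of the list reached 1 FPKM in all 18 libraries, so near sums need not come from the same genes. Crisp1 was at 13.04 FPKM in STZ library 1 and at 7.59 FPKM in STZ + AOS library 2. Results below that control-FMT libraries 2 and 3 touch are also given without them. That leaves 1 control-FMT library, which is then assumed to vary like the other groups. This library also held Gpx5 and Lcn8 above every AOS-FMT library, at 5.71 and 1.3 FPKM.

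**Figure D1:**
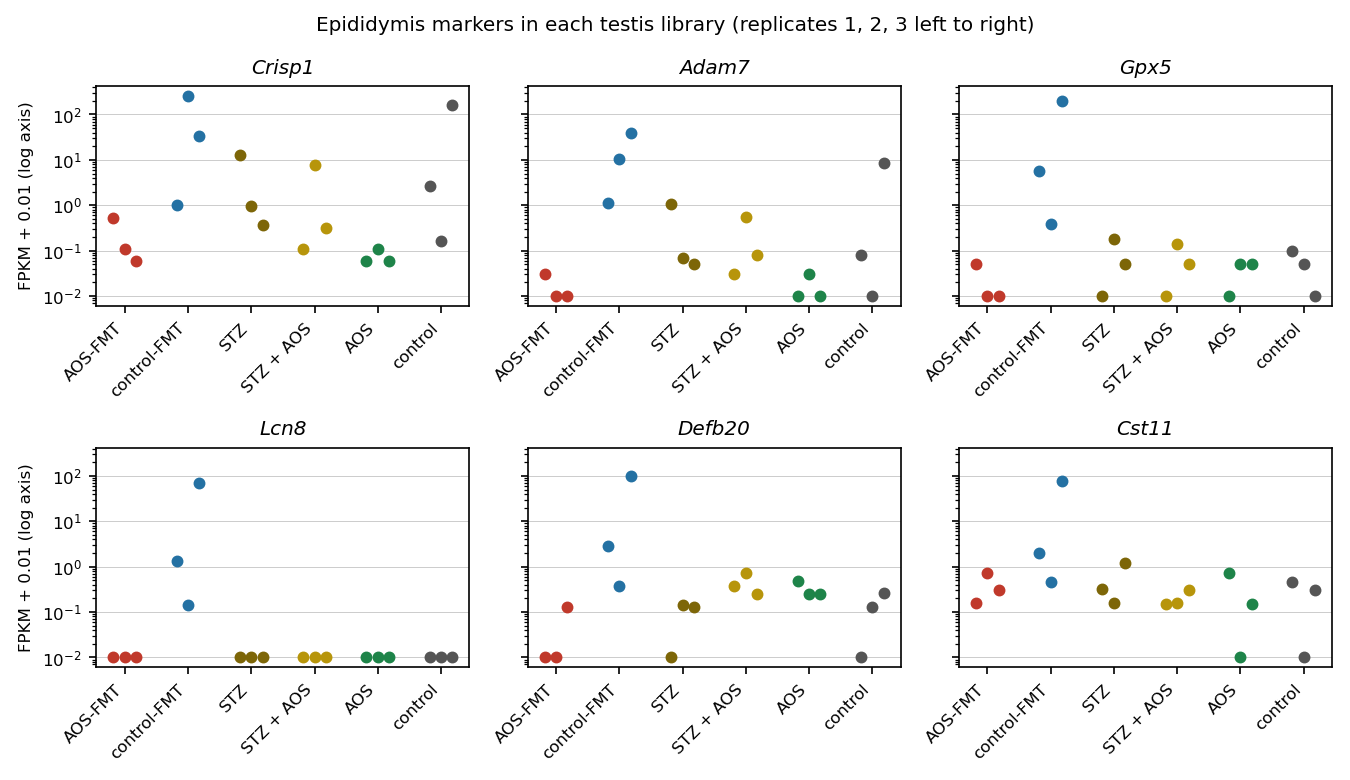
FPKM of 6 epididymis markers (log axis, 0.01 added) in each of the 18 testis libraries, 1 point per library, groups along the horizontal axis. The AOS-FMT libraries stay below 1 FPKM for all 6 genes, while Crisp1 reaches 255.65 FPKM in control-FMT library 2 and Gpx5 202.92 FPKM in control-FMT library 3.

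Because the libraries come from whole tissue, fewer cells of a type and less RNA per cell cannot be told apart in any of the following values. No gene passed the test between the transplant groups. Of 14164 genes tested by limma on log2(FPKM + 1), 0 (0%) had an adjusted p under 0.05, and the smallest adjusted p was 0.139, for Imp3. Without adjustment, 866 genes had p under 0.05, of which 241 (1.7%) had higher values in AOS-FMT and 625 (4.41%) lower values. The 3 AOS-FMT libraries lay above all 3 control-FMT libraries for 525 genes (3.71%) and below them for 1588 genes (11.2%). The split between lower and higher values depended on the scaling. It was 344 lower and 516 higher after quantile normalization, and 339 lower and 551 higher after centring every library on its median. Without control-FMT libraries 2 and 3, 239 genes had lower and 143 higher values at an unadjusted p under 0.05.

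Differences were small for nearly all genes. The log2 fold change (log2FC, AOS-FMT minus control-FMT on the log2(FPKM + 1) scale, which understates the change of low genes) had a median of −0.03 and lay below 0 for 64.52% of the genes. For 97.32% of the genes the unadjusted 95% interval of the log2FC lay within −1 and 1, and for 85.55% within −0.5 and 0.5. A log2FC of 1 or more was found for 10 genes and of −1 or less for 65 genes. Control-FMT library 2 was the highest of the 6 libraries for 35 of these 65 genes, control-FMT library 3 for 15 and control-FMT library 1 for 12. With control-FMT libraries 2 and 3 left out, 45 genes had a log2FC of −1 or less and 29 of 1 or more. Crisp1 of the epididymis list is among the 65. Adam7 and Cst11 of that list are too, but they were tested only because they reached 1 FPKM in control-FMT libraries, where they are high.

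**Figure D2:**
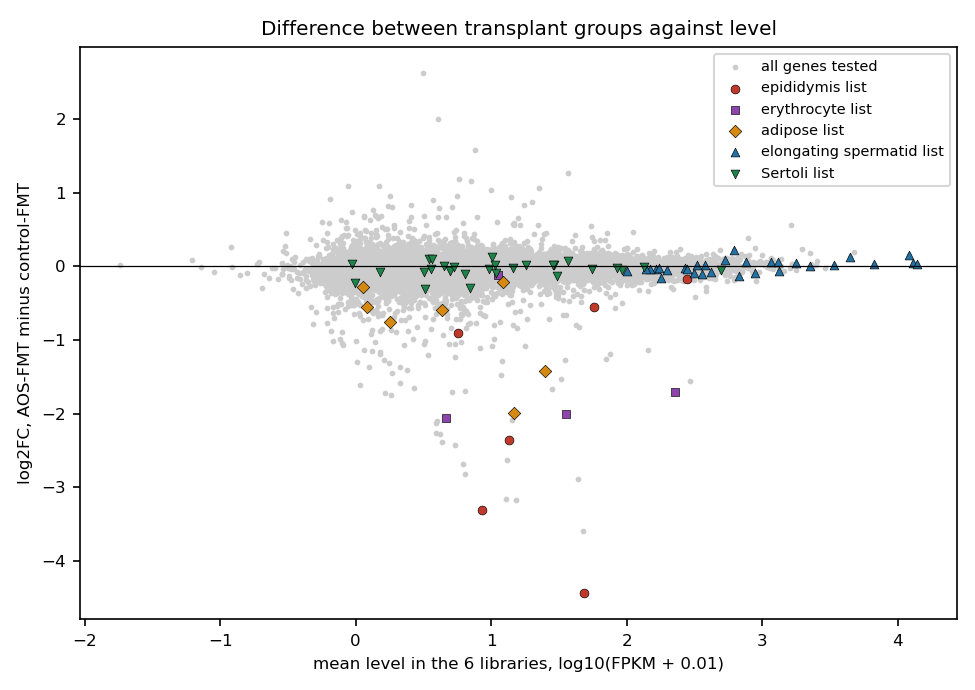
Log2 fold change of AOS-FMT minus control-FMT for the 14164 genes tested (vertical axis) against the mean level in the 6 libraries (horizontal axis, log10 of FPKM + 0.01), 1 point per gene, with members of 5 gene lists coloured. Elongating spermatid and Sertoli genes sit near 0, and epididymis, erythrocyte and adipose genes lie below it, from −0.12 for Alas2 to −4.44 for Crisp1. Among the latter, Adam7, Cst11 and Hbb-bt were tested only because they reached 1 FPKM in control-FMT libraries, where they are high.

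The products of sperm formation lay close together in the transplant groups. Protamine 2 (Prm2) was at 10555.11, 14831.03 and 12764.41 FPKM in AOS-FMT libraries and at 11126.48, 10140.96 and 13012.69 FPKM in control-FMT libraries, with a log2FC of 0.15 (SE 0.18, adjusted p = 0.949 by limma). Transition protein 1 (Tnp1), which replaces histones before the protamines do, was at 6775.44, 6596.97 and 7019.31 FPKM in AOS-FMT and at 7177.71, 5959.44 and 6917.26 FPKM in control-FMT. The groups overlapped for both genes, as they did for Tnp2 (12906.48 to 13878.65 FPKM in AOS-FMT, 11282.05 to 14121.71 FPKM in control-FMT) and for Smcp, the capsule protein of sperm mitochondria (4472.96 to 4966 FPKM in AOS-FMT, 4078.3 to 4627.46 FPKM in control-FMT). Together Prm1, Prm2, Prm3, Tnp1 and Tnp2 took 7.467, 8.403 and 7.961% of the summed values in AOS-FMT and 7.678, 6.925 and 8.105% in control-FMT. Their mean was 7.94 ± 0.47% in AOS-FMT and 7.57 ± 0.6% in control-FMT (SD, n = 3 each), a difference within the spread between replicates (two-sided exact permutation test, p = 0.5, where 0.1 is the smallest p that 3 against 3 allows). For comparison, the STZ libraries were at 6.573, 3.55 and 4.73% and the control libraries at 7.85, 7.174 and 7.015%.

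Other germ cell stages differed as little. Of 33 meiotic spermatocyte genes tested, 18 (54.55%) lay below 0, beside 64.52% of all genes, and 15 above. Their median log2FC was −0.01, and 0 had an unadjusted p under 0.05. Sycp3, a lateral element of the synaptonemal complex, was at 187.07, 153.66 and 170.95 FPKM in AOS-FMT and at 173.26, 181.81 and 149.11 FPKM in control-FMT. Ddx4, the germ cell helicase known as Vasa, lay between 199.58 and 230.08 FPKM in AOS-FMT and between 210.73 and 231.81 FPKM in control-FMT, and the acrosomal gene Acrv1 between 248.72 and 291.46 FPKM in AOS-FMT and between 266.87 and 274.77 FPKM in control-FMT. These 3 genes overlapped between the groups. Hspa2, a chaperone needed to leave meiosis, was at 471.99, 513.74 and 499.31 FPKM in AOS-FMT and at 452.31, 465.95 and 448.1 FPKM in control-FMT, with a log2FC of 0.12 (adjusted p = 0.839 by limma). Its groups did not overlap, but the difference did not pass the test. The 28 round spermatid genes had a median of 0.03, the 30 elongating spermatid genes −0.01 and the 35 sperm motility genes −0.01, beside −0.03 over all genes tested.

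Single germ cell genes with the smallest p in these lists were not called either. Tsga8, a nuclear protein of haploid germ cells, was at 197.12, 189.7 and 203.38 FPKM in AOS-FMT and at 234.3, 235.17 and 260.9 FPKM in control-FMT, with a log2FC of −0.30 (SE 0.10, adjusted p = 0.723 by limma). All 3 AOS-FMT libraries lay below the control-FMT libraries. Tekt2, a tektin of the sperm axoneme, was at 202.19, 224.15 and 220.15 FPKM in AOS-FMT and at 196.79, 195.95 and 202.55 FPKM in control-FMT, with groups that overlapped by a narrow margin. Among 15 spermatogonial genes the median was −0.08, and Etv5, a transcription factor of stem spermatogonia, was at 4.82, 4.84 and 4.96 FPKM in AOS-FMT and at 5.17, 5.56 and 6.56 FPKM in control-FMT. Kit, the receptor of differentiating spermatogonia, was at 4.49, 4.72 and 4.38 FPKM in AOS-FMT and at 4.84, 5.38 and 5.32 FPKM in control-FMT. Stra8, which is induced by retinoic acid at meiotic entry, and Zbtb16, a repressor kept in undifferentiated spermatogonia, overlapped between the groups.

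Sertoli cell transcripts differed as little as those of germ cells. The 28 Sertoli genes tested had a median log2FC of −0.03. A lower value at an unadjusted p under 0.05 was found for 1 (3.571%), beside 4.41% of all genes. Clusterin (Clu), a secreted Sertoli chaperone, was at 491.84, 484.96 and 493.02 FPKM in AOS-FMT and at 479.01, 509.39 and 539.97 FPKM in control-FMT. Cldn11, the main claudin of the blood-testis barrier, lay between 35.96 and 39.91 FPKM in AOS-FMT and between 35.31 and 38.09 FPKM in control-FMT. The transcription factors Sox9 and Wt1 overlapped too, with Sox9 between 3.38 and 4.18 FPKM in AOS-FMT and between 2.95 and 3.59 FPKM in control-FMT. Wt1 lay between 10.32 and 10.83 FPKM in AOS-FMT and between 10.6 and 11.84 FPKM in control-FMT. Over the 19 barrier genes tested the median was −0.12, and 0 had an unadjusted p under 0.05.

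Steroidogenic transcripts had lower values in AOS-FMT for most genes, with large errors. Of 26 Leydig genes tested, 23 (88.46%) lay below 0, beside 64.52% of all genes. Their median log2FC was −0.11, and 0 had an unadjusted p under 0.05. Star, which brings cholesterol into mitochondria, was at 29.73, 31.08 and 24.8 FPKM in AOS-FMT and at 32.45, 41.55 and 34.98 FPKM in control-FMT, with a log2FC of −0.34 and an SE of 0.40, estimated over all 18 libraries. Its groups did not overlap, and those of the genes that follow did. Cyp17a1, the lyase on the route to androgens, was at 243.17, 284.51 and 185.12 FPKM in AOS-FMT and at 261.04, 253.01 and 229.95 FPKM in control-FMT. Insl3, the Leydig hormone of testis descent, lay between 2755.27 and 3014.45 FPKM in AOS-FMT and between 2396.83 and 3492.33 FPKM in control-FMT. Hsd3b1, a dehydrogenase of the same pathway, was at 86.02, 85.56 and 66.05 FPKM in AOS-FMT and at 74.05, 129.53 and 80.74 FPKM in control-FMT. The SE of the log2FC was 0.49 for Insl3, against 0.16 for Tnp1, so a difference of a given size was less detectable for Insl3 in this model. Summed over the Leydig list, STZ libraries were at 2626, 13680 and 14710 FPKM. The sums ran from 4000 to 4550 FPKM in AOS-FMT and from 3829 to 4937 FPKM in control-FMT. How much of the SE came from the STZ libraries was not tested.

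No contractile or matrix gene of the interstitium was called. All 11 peritubular myoid genes tested were below 0, beside 64.52% of all genes, with a median of −0.25. Of these, 3 had lower values at an unadjusted p under 0.05 (Myh11, Mylk and Tagln), beside 4.41% of all genes. Smooth muscle myosin (Myh11) was at 5.49, 5.67 and 4.61 FPKM in AOS-FMT and at 5.48, 9.9 and 6.72 FPKM in control-FMT, so that control-FMT library 2 was the highest and library 1 overlapped AOS-FMT. Acta2, smooth muscle actin, was at 19.37, 19.25 and 24.65 FPKM in AOS-FMT and at 19.8, 29.63 and 26.57 FPKM in control-FMT, with the same library highest. Without control-FMT libraries 2 and 3, the median of the myoid list was 0.00 and 5 of its 11 genes lay below 0, beside 59.69% of all genes, and 0 had an unadjusted p under 0.05. All 15 fibroblast and matrix genes were below 0 as well, with a median of −0.24, and 3 had lower values at an unadjusted p under 0.05, beside the same shares of all genes. Lum, a proteoglycan that spaces collagen fibrils, was at 1.35, 1.24 and 1.55 FPKM in AOS-FMT and at 2.62, 2.49 and 2.72 FPKM in control-FMT, with a log2FC of −0.60 (SE 0.12, adjusted p = 0.315 by limma). Decorin (Dcn), its close relative, was at 35.99, 37.07 and 41.84 FPKM in AOS-FMT and at 48.28, 48.1 and 66.88 FPKM in control-FMT. Neither gene overlapped between the groups. Every AOS-FMT library lay below every control-FMT library for 6 (40%) of the 15 matrix genes, beside 11.2% of all genes. Col3a1, a fibrillar collagen, was at 4.15, 6.31 and 5.71 FPKM in AOS-FMT and at 6.97, 9.68 and 13.81 FPKM in control-FMT, with control-FMT library 3 highest. Without control-FMT libraries 2 and 3 the matrix list had a median of −0.10, with 11 of 15 genes below 0 and 1 lower at an unadjusted p under 0.05, beside 59.69% and 1.69% of all genes. After quantile normalization or median centring 13 of the 15 lay below 0, beside 46.56% and 42.77% of all genes. The summed epididymis markers, given above, were likewise highest among the 6 libraries in control-FMT libraries 2 and 3. Relative to the control mean, medians in these 2 libraries were 0.46 and 0.22 for the myoid list and 0.12 and 0.19 for the matrix list. Control library 3, with a marker sum of 495.6 FPKM, had medians of 0.02 and 0.08. The part of these markers in the result was not tested.

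Blood and fat transcripts held no called gene. Hba-a1, an adult alpha globin of red cells, was at 71.12, 144.38 and 96.48 FPKM in AOS-FMT and at 537.67, 236.87 and 277.68 FPKM in control-FMT, with a log2FC of −1.71 (SE 0.53, adjusted p = 0.696 by limma). Hbb-bt, a beta globin, was at 0.51, 0.44 and 0.86 FPKM in AOS-FMT and at 16.23, 8.81 and 0.75 FPKM in control-FMT, with library 3 inside the AOS-FMT range. Summed over the 7 genes of the erythrocyte list, the level was 91.84, 157.2 and 129.9 FPKM in AOS-FMT and 673.4, 325.9 and 297.3 FPKM in control-FMT. STZ libraries 1, 2 and 3 had sums of 61.67, 396.5 and 186.2 FPKM. The highest sums were 140.9 FPKM in control, 98.76 FPKM in AOS and 208.9 FPKM in STZ + AOS. Globin genes share near-identical sequence, and how the authors' counting split reads between them is not given in the sources used here. Hbb-bt reached 1 FPKM in 3 of the 18 libraries, 2 of them control-FMT, so it was tested only because of the group in which it is high. Alas2, the first enzyme of haem synthesis in red cell precursors, was at 11.49, 9.08 and 11.98 FPKM in AOS-FMT and at 11.64, 11.37 and 12.33 FPKM in control-FMT. Slc4a1, the anion exchanger that defines the red cell membrane, was near 0 in all 6 libraries, at 0.06 FPKM or less.

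Adipose genes spread widely within AOS-FMT. Cfd, the adipocyte protease adipsin, was at 1.48, 3.74 and 15.35 FPKM in AOS-FMT and at 28.69, 16.3 and 22.83 FPKM in control-FMT. Lpl, the lipase that frees fatty acids from lipoproteins, was at 0.41, 1.12 and 1.87 FPKM in AOS-FMT and at 2.9, 2.07 and 2.42 FPKM in control-FMT, with a log2FC of −0.75 (SE 0.33, adjusted p = 0.804 by limma). Fabp4, the adipocyte fatty acid carrier, was at 4.01, 17.52 and 24.13 FPKM in AOS-FMT and at 39.85, 30.55 and 33.32 FPKM in control-FMT. For all 3 genes AOS-FMT library 1 was the lowest and the groups did not overlap. Every AOS-FMT library lay below every control-FMT library for 4 (57.14%) of the 7 adipose genes tested, beside 11.2% of all genes. Adipoq, the hormone adiponectin, overlapped, at 10.25 to 13.44 FPKM in AOS-FMT and at 11.86 to 14.66 FPKM in control-FMT. All 7 adipose genes tested lay below 0, beside 64.52% of all genes, with a median of −0.59. Lower values at an unadjusted p under 0.05 were found for 2, beside 4.41% of all genes. Without AOS-FMT library 1 the median was −0.35. The count of 2 became 0 without AOS-FMT library 1, AOS-FMT library 2, control-FMT library 1 or control-FMT library 3. Without control-FMT libraries 2 and 3 the median was −0.93. The sum over the 10 genes of the list was 19.94, 38.63 and 63.44 FPKM in AOS-FMT and 97.44, 69.77 and 81.66 FPKM in control-FMT. STZ libraries 1, 2 and 3 had sums of 21.37, 28.97 and 189.5 FPKM. The highest sums were 36.06 FPKM in control, 41.18 FPKM in AOS and 25.88 FPKM in STZ + AOS. Lep, which defines white fat, was at 0.34 FPKM or less in the 6 libraries.

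Crisp1 had the lowest log2FC of all genes tested, −4.44. Of the 13 genes of the epididymis list, 6 passed the filter on low values. Adam7 and Cst11 passed it only because they reached 1 FPKM in control-FMT libraries, where they are high, so no count over the members that passed is given. Members such as Gpx5 and Lcn8 failed the filter because they reached 1 FPKM in too few libraries. Adam7, a membrane protein passed from epididymis to sperm, was at 0.02, 0 and 0 FPKM in AOS-FMT and at 1.1, 10.65 and 39.61 FPKM in control-FMT (adjusted p = 0.557 by limma). Cst11, an epididymal cystatin, was at 0.15, 0.71 and 0.29 FPKM in AOS-FMT and at 2.02, 0.44 and 77.81 FPKM in control-FMT. The control-FMT libraries differed from each other in which of these genes they held. Crisp1 and Akr1b7, an aldo-keto reductase, were highest in control-FMT library 2: Akr1b7 was at most at 0.29 FPKM in AOS-FMT and at 0.52, 81.48 and 8.84 FPKM in control-FMT. Defb20, a beta-defensin, was at most at 0.12 FPKM in AOS-FMT and at 2.9, 0.36 and 99.07 FPKM in control-FMT, highest in library 3.

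Further genes with a log2FC below −2 were picked out after their values were seen. Beta-defensin Defb47 was at 0.67, 0.09 and 0.53 FPKM in AOS-FMT and at 4.75, 2.07 and 276.78 FPKM in control-FMT. Cd52, a glycoprotein of lymphocytes that epididymal epithelium also makes, was at 3.27, 3.49 and 2.08 FPKM in AOS-FMT and at 2.29, 220.93 and 31.67 FPKM in control-FMT. Spink8, a protease inhibitor, was at 0, 0.61 and 0.86 FPKM in AOS-FMT and at 1.6, 61.71 and 12.07 FPKM in control-FMT. Each of these genes was far higher in 1 control-FMT library than in the other 2, and for Cd52 control-FMT library 1 lay inside the AOS-FMT range. Cd52 and Spink8 were also high in control library 3, at 133.05 and 42.56 FPKM. Defb47 reached 1 FPKM in the 3 control-FMT libraries and in no other library. Gpx3, a secreted peroxidase made in epididymis and many other tissues, was at 7.46, 12.89 and 27.97 FPKM in AOS-FMT and at 21.42, 87.34 and 40.07 FPKM in control-FMT. It was the 1 antioxidant gene of 35 with a lower value at an unadjusted p under 0.05, beside 4.41% of all genes, and 0 had a higher value.

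Promoters of Crisp1 and Gpx5 are shown because these genes marked different control-FMT libraries. Each runs from 250 bases before to 50 after the start, from RefSeq (GRCm38.p6), at chr17:40319158-40319457 and chr13:21292637-21292936, both on the minus strand. Capitals mark matches, on either strand, to AGAACA, a steroid hormone receptor motif, and to TATAAA, a core promoter motif.
Crisp1: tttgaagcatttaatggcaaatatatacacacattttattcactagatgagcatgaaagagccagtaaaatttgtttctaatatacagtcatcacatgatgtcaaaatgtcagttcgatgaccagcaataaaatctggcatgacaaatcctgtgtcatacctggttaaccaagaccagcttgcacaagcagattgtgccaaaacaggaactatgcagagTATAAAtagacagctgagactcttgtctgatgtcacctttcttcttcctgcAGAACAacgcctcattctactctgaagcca
Gpx5: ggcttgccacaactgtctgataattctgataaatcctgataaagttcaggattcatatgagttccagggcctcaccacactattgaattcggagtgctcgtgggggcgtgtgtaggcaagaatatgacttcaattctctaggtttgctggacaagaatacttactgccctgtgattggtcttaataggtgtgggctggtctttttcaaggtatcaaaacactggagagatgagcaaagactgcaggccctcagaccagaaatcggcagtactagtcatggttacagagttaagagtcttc
The Crisp1 window held 1 match to AGAACA, starting at position 21 after the start, and 1 to TATAAA, at −31. The Gpx5 window held neither string. Among 27025 mouse promoters of this length, 19.02% held AGAACA and 14.16% TATAAA, so these matches are common and only describe the letters.

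Immediate early genes, transcription factors switched on within minutes of a stimulus, were not called. Fos was at 0.42, 0.26 and 0.19 FPKM in AOS-FMT and at 1.89, 2.43 and 0.77 FPKM in control-FMT, with a log2FC of −1.01 (SE 0.29, adjusted p = 0.644 by limma). Junb, a partner of Fos in the AP-1 factor, was at 2.32, 2.36 and 2.73 FPKM in AOS-FMT and at 3.47, 4.98 and 3.67 FPKM in control-FMT. Egr1, a zinc finger factor of the same response, was at 1.71, 1.78 and 1.38 FPKM in AOS-FMT and at 2.46, 4.99 and 2.59 FPKM in control-FMT. None of the 3 genes overlapped between the groups, and control-FMT library 2 was the highest for each. Every AOS-FMT library lay below every control-FMT library for 6 (30%) of the 20 genes tested in this list, beside 11.2% of all genes. Of the 20 immediate early and heat shock genes tested, 17 lay below 0, beside 64.52% of all genes. Lower values at an unadjusted p under 0.05 were found for 4, beside 4.41% of all genes: Fos, Junb, Egr1 and the chaperone Hsph1. These counts include Fos, which reached 1 FPKM in 4 of the 18 libraries, 2 of them control-FMT. Without that group, where it is high, Fos would not have passed the filter. The list's median was −0.13. The heat shock genes Hspa1a and Dnajb1 overlapped between the groups. Without control-FMT libraries 2 and 3, 14 of the 20 genes lay below 0 and 1 had a lower value at an unadjusted p under 0.05, beside 59.69% and 1.69% of all genes.

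Fos is shown with its promoter because it had the largest difference among the transcription factors of this list. The window lies at chr12:85473640-85473939 on the plus strand (RefSeq, GRCm38.p6), and capitals mark TGACG, a cyclic AMP response motif, and TATAAA on either strand.
Fos: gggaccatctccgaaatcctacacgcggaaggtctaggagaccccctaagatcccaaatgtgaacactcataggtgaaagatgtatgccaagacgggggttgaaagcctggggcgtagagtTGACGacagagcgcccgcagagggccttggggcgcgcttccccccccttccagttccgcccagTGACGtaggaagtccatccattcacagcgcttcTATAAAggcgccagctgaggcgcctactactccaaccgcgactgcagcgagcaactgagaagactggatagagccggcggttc
It held 2 matches to TGACG, starting at −129 and −66, and a TATAAA match at −33. TGACG stood in 21.02% of the 27025 promoters.

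The 14 genes of smallest p with lower values in AOS-FMT were led by Imp3. Imp3, a protein of the U3 particle that processes ribosomal RNA (chr9:56937475-56938398, GRCm38), was at 12.74, 9.64 and 10.12 FPKM in AOS-FMT and at 16.41, 15.53 and 15.33 FPKM in control-FMT, with a log2FC of −0.51 (SE 0.08, adjusted p = 0.139 by limma). It passed the test when AOS-FMT library 1, the highest of its group, was left out (adjusted p = 0.00622). Krt19, a keratin of simple epithelia, was at 0.25, 0.63 and 0.68 FPKM in AOS-FMT and at 1.01, 3.41 and 2.25 FPKM in control-FMT. Krt18, another keratin of simple epithelia, was at 0.15, 0.51 and 0.75 FPKM in AOS-FMT and at 1.21, 4.13 and 4.39 FPKM in control-FMT. Both keratins, like the summed epididymis markers, were higher in control-FMT libraries 2 and 3 than in the other 4 transplant libraries. In control library 3, where those markers summed to 495.6 FPKM, Krt18 was at 2.65 FPKM and Krt19 at 0.51 FPKM. STZ libraries 1, 2 and 3 held Krt18 at 2.59, 2.8 and 2.64 FPKM and Krt19 at 0.64, 1.03 and 1.52 FPKM. Their sums of epididymis markers were 374.9, 264.7 and 379.3 FPKM. The part of those markers in the result was not tested. Apod, a lipocalin that carries lipids, was at 0.48, 0.4 and 0.81 FPKM in AOS-FMT and at 3.34, 1.81 and 3.74 FPKM in control-FMT. Ckb, the brain-type creatine kinase, was at 3.54, 3.15 and 4.01 FPKM in AOS-FMT and at 6.09, 5.53 and 5.79 FPKM in control-FMT. Cd24a, a surface glycoprotein, was at 4.56, 4.36 and 4.38 FPKM in AOS-FMT and at 6.74, 8.69 and 7.1 FPKM in control-FMT. The others of the 14 were Lum, Mettl9 (a histidine methyltransferase), Sorcs2 (a sorting receptor), Ctbs (lysosomal chitobiase), Ripor2, Rps4x, Elmo3 and the gene model LOC108168584. The last was listed at 0 in all AOS-FMT libraries and stood at 3.03, 1.96 and 1.4 FPKM in control-FMT. Krt19 reached 1 FPKM in 5 of the 18 libraries, 3 of them control-FMT, and without that group would not have passed the filter.

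The 14 genes of smallest p with higher values in AOS-FMT included Ndufaf2 and Ndufs4. Ndufaf2, an assembly factor of complex I (chr13:108002715-108158623, GRCm38), was at 41.54, 46.69 and 44.66 FPKM in AOS-FMT and at 34.43, 32.26 and 36.95 FPKM in control-FMT, with a log2FC of 0.35 (SE 0.07, adjusted p = 0.344 by limma). Ndufs4, a subunit of the complex (chr13:114287795-114388258), was at 21.02, 26.03 and 30.96 FPKM in AOS-FMT and at 11.32, 17.49 and 12.37 FPKM in control-FMT. The 35 oxidative phosphorylation genes tested as a list had a median of −0.03. At an unadjusted p under 0.05, 0 were higher and 2 (5.714%) lower, beside 1.7% and 4.41% of all genes. Sdhb, the iron-sulfur subunit of complex II, was at 73.22, 69.21 and 72.5 FPKM in AOS-FMT and at 78.83, 81.89 and 76.13 FPKM in control-FMT. Lrrc46, needed for the sperm flagellum in mice, was at 917.34, 855.02 and 903.91 FPKM in AOS-FMT and at 709.34, 685.66 and 660.13 FPKM in control-FMT, with a log2FC of 0.38 (adjusted p = 0.628 by limma). Mns1, a flagellar and meiotic nuclear protein, was at 226.74, 222.23 and 225.51 FPKM in AOS-FMT and at 198.95, 196.37 and 193.14 FPKM in control-FMT. These were the 2 most abundant of the 14, and neither overlapped between the groups. Smn1, which assembles spliceosomal particles, was at 14.61, 16.72 and 15.72 FPKM in AOS-FMT and at 13.2, 12.94 and 12.85 FPKM in control-FMT. The olfactory receptors Olfr325 and Olfr701 were also among the 14, with Olfr701 at 13.61, 12.76 and 14.17 FPKM in AOS-FMT and at 9.7, 10.78 and 11.62 FPKM in control-FMT. The rest were Rassf7, Tango6, Btbd8, Arhgap15, Cldn34d and the gene models LOC108168650 and LOC108168589. LOC108168650 was at 6.61, 8.85 and 7.38 FPKM in AOS-FMT and at 2.07, 4.95 and 3.69 FPKM in control-FMT, and passed the test without control-FMT libraries 2 and 3 (adjusted p = 0.0116 by limma).

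**Figure D3:**
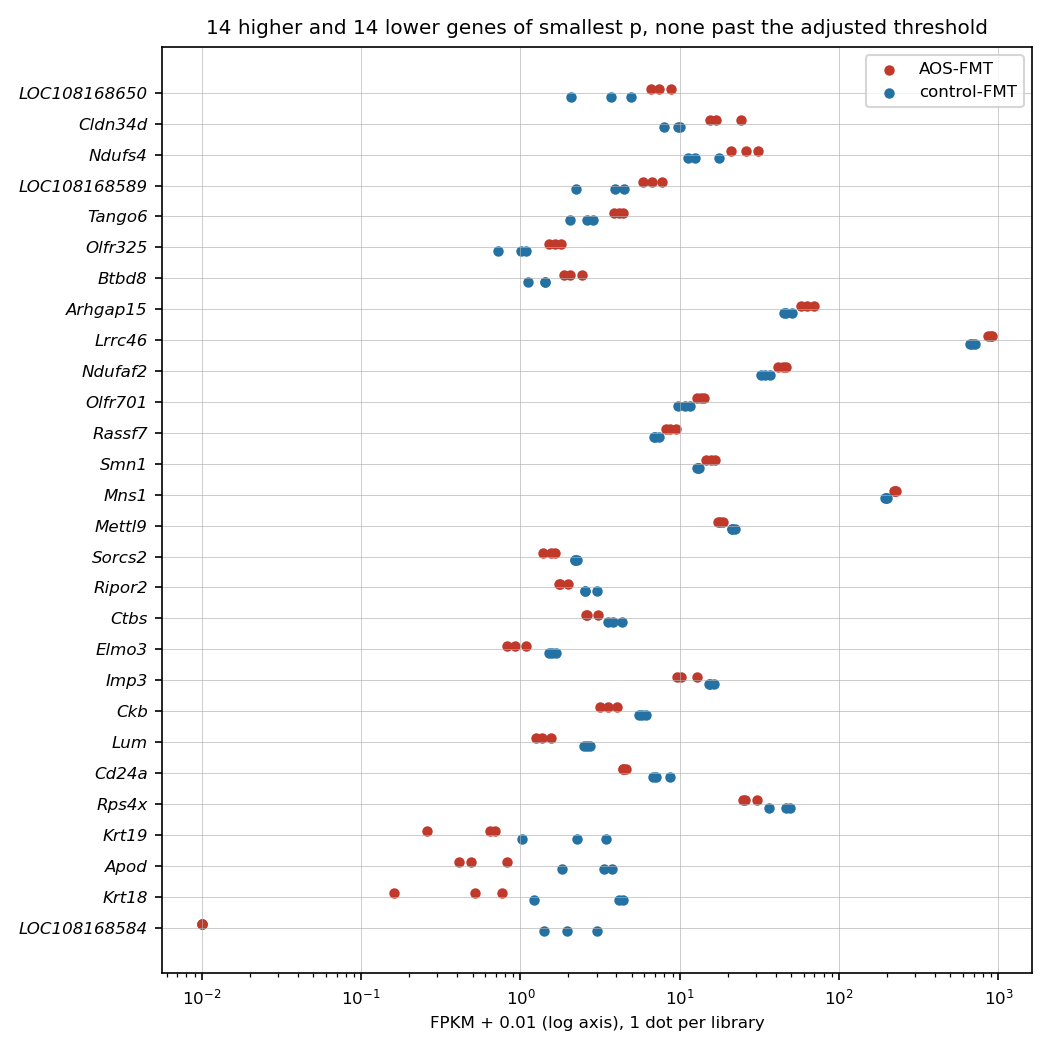
FPKM (log axis, 0.01 added) of the 14 genes of smallest p with higher and the 14 with lower values in AOS-FMT, 1 dot per library, AOS-FMT in red above control-FMT in blue on each row. The groups do not overlap for any of these genes, which were required not to, and none has an adjusted p under 0.05.

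No gene of protein synthesis or of polyamines was called. Of 36 ribosomal protein genes, 27 lay below 0, beside 64.52% of all genes, and 7 had an unadjusted p under 0.05, all lower, beside 4.41% of all genes. Rps4x, an X-linked protein of the small subunit, was at 25, 25.53 and 30.66 FPKM in AOS-FMT and at 36.04, 46.28 and 48.96 FPKM in control-FMT. Rpl10, another X-linked member, was at 73.98, 74.82 and 80.22 FPKM in AOS-FMT and at 91.38, 113.89 and 121.06 FPKM in control-FMT. The germ cell copies Rpl10l and Rpl39l overlapped between the groups, at 152.34 to 194.34 FPKM in AOS-FMT and 174.59 to 188.36 FPKM in control-FMT for Rpl10l. Ribosomal protein genes have many near-identical pseudogenes, so their values are uncertain. After median centring 19 of the 36 lay below 0 and 3 had lower values at an unadjusted p under 0.05, beside 42.77% and 2.39% of all genes. Without control-FMT libraries 2 and 3 the count of lower values was 2, beside 1.69% of all genes. Srm, spermidine synthase, was at 4.64, 5.68 and 13.17 FPKM in AOS-FMT and at 14.75, 10.91 and 13.91 FPKM in control-FMT, and Sat1, which acetylates polyamines for export, was at 3.11, 1.96 and 3.22 FPKM in AOS-FMT and at 3.52, 7.61 and 4.07 FPKM in control-FMT. Srm, Sat1, Oaz1 and Cbs were the 4 of 20 polyamine and one-carbon genes with an unadjusted p under 0.05, each lower, beside 4.41% of all genes.

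Immune and stress pathways showed no called gene. Of 19 macrophage genes tested, 10 lay below 0, beside 64.52% of all genes, with a median of −0.02. H2-Ab1, a class II antigen-presenting chain, was at 13.07, 14.75 and 12.75 FPKM in AOS-FMT and at 10.72, 6.37 and 9.01 FPKM in control-FMT, with a log2FC of 0.61 (SE 0.25, adjusted p = 0.804 by limma). Cd74, the invariant chain that escorts class II molecules, did not share this order and was at 15, 17.01 and 16.91 FPKM in AOS-FMT and at 18.36, 12.25 and 17.82 FPKM in control-FMT. The medians were −0.06 for 12 interferon-induced genes, −0.05 for 12 NF-kB and inflammation genes, −0.02 for 20 unfolded protein response genes and −0.08 for 21 apoptosis and p53 genes. Xbp1, a factor of the unfolded protein response, was at 4.29, 4.63 and 5.21 FPKM in AOS-FMT and at 5.58, 6.38 and 6.6 FPKM in control-FMT. Lyz2, Adgre1 and C1qa, genes of resident macrophages, overlapped between the groups, with Adgre1 between 1.08 and 1.74 FPKM in AOS-FMT and between 1.12 and 1.27 FPKM in control-FMT. The groups did not overlap for Xbp1, and its adjusted p by limma was 0.804.

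Metabolic pathways likewise held no called gene. The 31 genes of glucose transport and glycolysis had a median of 0.00, and Slc2a3, a glucose transporter, was at 306.41, 284.09 and 275.35 FPKM in AOS-FMT and at 317.24, 316.18 and 296.22 FPKM in control-FMT. Among 28 fatty acid genes the median was −0.10 and 24 (85.71%) lay below 0, beside 64.52% of all genes. Fasn, fatty acid synthase, was at 9.18, 9.36 and 8.85 FPKM in AOS-FMT and at 10.02, 10.28 and 10.81 FPKM in control-FMT, with a log2FC of −0.17 (SE 0.06, adjusted p = 0.723 by limma). The 23 cholesterol synthesis genes had a median of −0.06, the 18 insulin and IGF genes −0.07, the 21 retinoic acid genes −0.08 and the 13 clock genes −0.06. Adh1, which oxidises retinol, was at 11.36, 10.22 and 13.15 FPKM in AOS-FMT and at 15.2, 20.81 and 19.07 FPKM in control-FMT. The groups did not overlap for Fasn or Adh1.

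**Figure D4:**
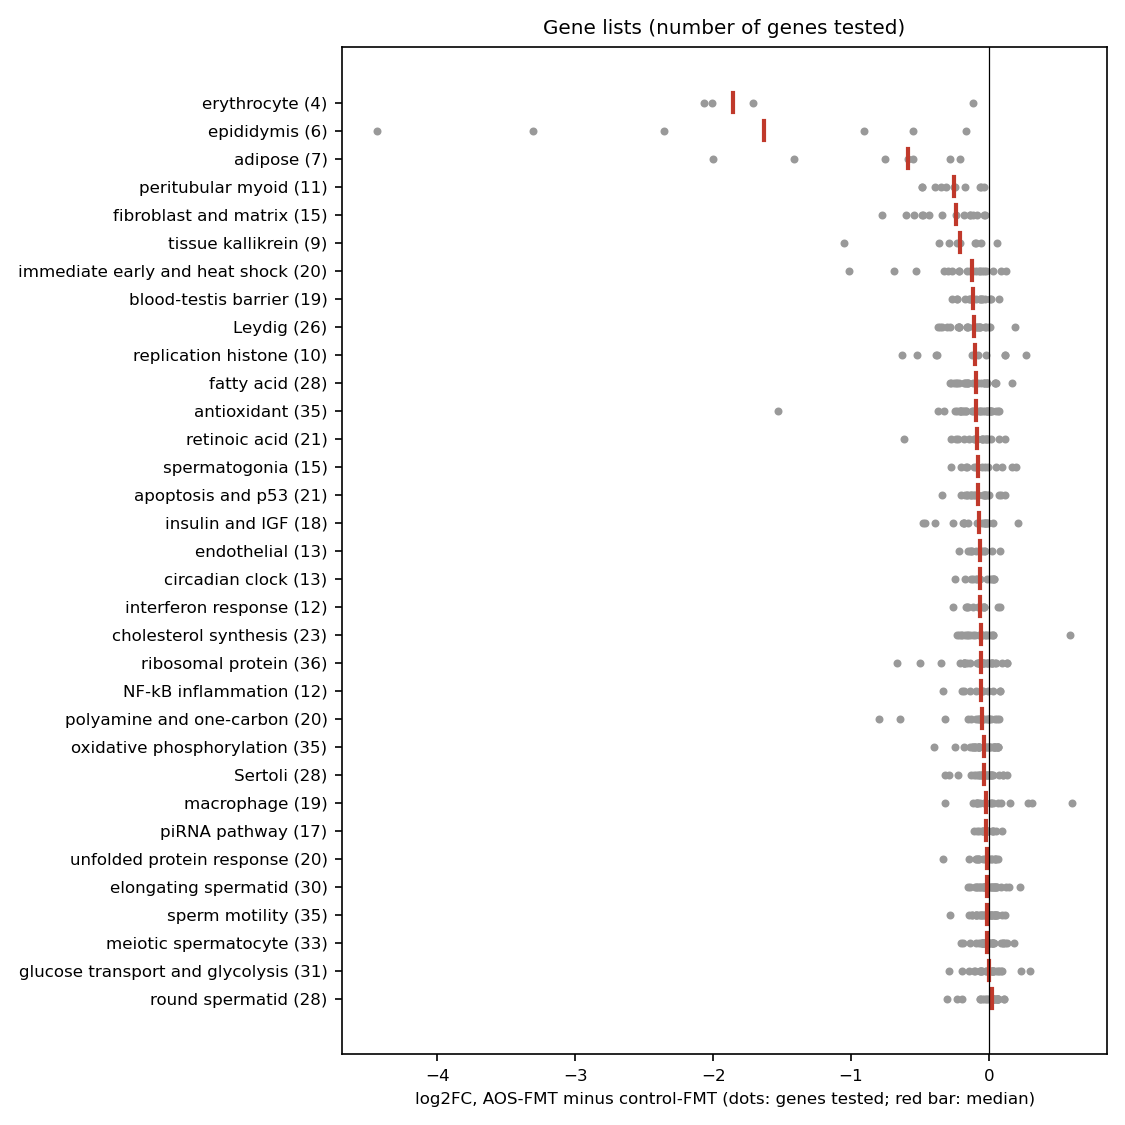
Log2 fold change of AOS-FMT minus control-FMT for the tested genes of 33 lists (grey dots) with each list's median (red bar), lists ordered by median and their number of tested genes in brackets. Medians run from 0.03 for round spermatid genes to −1.86 for the 4 erythrocyte genes tested. Of these, Hbb-bt was tested only because it reached 1 FPKM in control-FMT libraries, where it is high. Adam7 and Cst11 of the epididymis list were too. Without the low-value filter the erythrocyte median is −0.12.

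Genes raised by streptozotocin alone were looked up in the transplant groups. In STZ against control libraries, which share no library with the transplant groups, 813 genes were called with a log2FC of 1 or more. Relative to the mean of the control libraries, the median log2 level of these 813 genes was −0.02, 0.01 and 0.03 in AOS-FMT libraries and 0.06, 0.13 and 0.16 in control-FMT libraries. In the STZ libraries themselves it lay between 0.89 and 1.43. Both transplant groups thus lay far nearer to control than to STZ, with AOS-FMT the lower and the groups not overlapping. Between the transplant groups, 675 of the 813 genes (83.03%) lay below 0, beside 64.52% of all genes, with a median log2FC of −0.11. At an unadjusted p under 0.05, 69 had lower values and 6 higher values, beside 4.41% and 1.7% of all genes. After median centring these counts were 57 (7.01%) and 9 (1.11%), beside 2.39% and 3.89% of all genes. After quantile normalization they were 45 (5.54%) and 10 (1.23%), beside 2.43% and 3.64%. With the 6 transplant libraries alone they were 150 (18.5%) and 6, beside 6.83% and 2.06%. With the 15 libraries outside the STZ group they were 150 (18.5%) and 8, beside 7.79% and 2.46%. Without control-FMT libraries 2 and 3 they were 10 (1.23%) and 3, beside 239 (1.69%) and 143 of all genes, so the share of lower values was then not above that of all genes. The median log2FC was then −0.06 and 66.67% lay below 0, beside −0.03 and 59.69% of all genes. Apod, Cd24a, Rps4x, Fos, Dcn and Junb, given above, belong to the 69 with lower values. Without control-FMT, where it is high, Fos would not have passed the low-value filter. Of the transplant libraries, control-FMT 2 and 3 had the highest medians and the highest sums of epididymis markers. Control library 3, with a marker sum of 495.6 FPKM, had a median of 0.01 for the 813 genes. The part of epididymal RNA in the result was not tested.

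**Figure D5:**
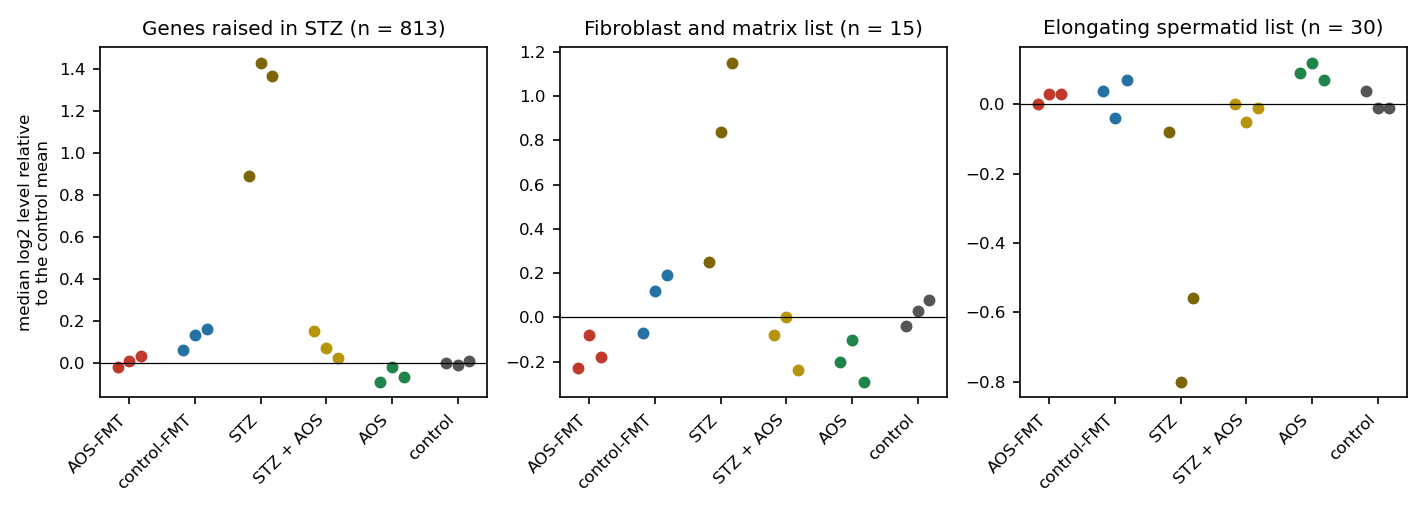
Median log2 level of 3 gene sets relative to the mean of the control libraries, 1 point per library, groups along the horizontal axis. For the 813 genes raised in STZ the AOS-FMT libraries lie between −0.02 and 0.03 and the control-FMT libraries between 0.06 and 0.16, and for elongating spermatid genes both transplant groups lie near 0.

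The transplant difference was also set against the effect of AOS given directly without STZ, AOS minus control. The test of the difference between the 2 effects called 0 of 14164 genes (0%), with a smallest adjusted p of 0.617 by limma, and 726 genes (5.13%) had an unadjusted p under 0.05. Late spermatid transcripts took 8.872, 8.606 and 8.652% of the summed values in AOS libraries and 7.85, 7.174 and 7.015% in control libraries. For the elongating spermatid list, the median log2FC was −0.01 in AOS-FMT minus control-FMT and 0.09 in AOS minus control. The fibroblast and matrix list had medians of −0.24 in AOS-FMT minus control-FMT and −0.19 in AOS minus control.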

How the data were processed

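RNA sequencing of whole testis gave 1 value per gene and library for 18 libraries, 6 groups of 3 by the labels. The deposited values were taken as FPKM from their pattern, since the header names no unit, and RPKM or TPM with genes left out cannot be told apart from it. Per the submitters' processing notes, Bowtie 0.12.2 and build mm10 were used, and no counter, annotation or strand setting is given in the sources used here. Read depth is unknown, so no counting interval was computed. limma 3.58.1 (R 4.3.3, trended variance) was fitted to log2(FPKM + 1) for the 14164 genes with at least 1 FPKM in at least 3 of 18 libraries, with a mean per group and no block. Calls used a two-sided Benjamini-Hochberg adjusted p under 0.05, and unadjusted counts are descriptions. The model was tested on simulated data. Alternatives were other pseudocounts, filters, scalings, sets of libraries and a replicate block.

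Genes were named by rule: with no gene called, the 14 of smallest p in each direction with no overlap between groups and a mean of 1 FPKM or more in a group, up to 2 of smallest p per list, and fixed markers. Symbols of the form Gm plus digits, Rik clones and symbols turned into dates or numbers were passed over. Others are marked as picked after their values were seen, and list members are given as examples. Results for a few genes chosen this way are not reported here. The members and the 34 lists were chosen with earlier results of these data known. Coordinates are from GENCODE M21 (GRCm38), which matched 96.49% of the symbols, and promoters from RefSeq.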

Additional observations from a re-analysis of the deposited data

How the results depend on the processing

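No gene passed the threshold with a pseudocount of 0.1 or 5, the stricter filter, quantile normalization, median centring, the 6 transplant libraries alone or 15 libraries without the STZ group. Without the low-value filter 1 gene passed (Chad, a cartilage matrix protein, adjusted p = 0.0139 by limma) and 2 did in the difference from direct AOS. Leaving out 1 transplant library gave 0 to 3 calls (Imp3; Akr1b7, Krt19 and Gm46403; or Hbb-bt, Gm40363 and Defb47), and 0 to 1 in the difference from direct AOS (LOC108168584 without control library 1). Akr1b7, Krt19, Hbb-bt and Defb47 passed the low-value filter only through control-FMT, where they are high. Further exclusions were chosen after seeing the data. Leaving out control-FMT libraries 2 and 3 gave 3 calls (LOC108168650, Hbb-bt, Defb47), and leaving out control library 3 as well gave 4, adding Slc12a4. The replicate numbers do not pair the samples: deviations of same-numbered libraries correlated at −0.1, −0.09 and 0.02, and other pairs at −0.07 to 0.16. With the replicate block there were 0 calls (smallest adjusted p 0.0953 by limma), 631 lower and 221 higher values at an unadjusted p under 0.05.

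Beside 625 lower values at an unadjusted p under 0.05, there were 982 without the filter, 355 with the stricter one, 344 after quantile normalization, 339 after median centring, 968 with 6 libraries, 1103 with 15, 381 to 603 leaving out 1 library, 239 without control-FMT libraries 2 and 3 and 226 without control library 3 as well. Beside 241 higher values there were 516 after quantile normalization, 551 after median centring, and 143 and 141 under the 2 exclusions. The 65 genes at a log2FC of −1 or less became 127 with a pseudocount of 0.1, 28 with 5 and 32 with the stricter filter. Without control-FMT libraries 2 and 3 the 65 became 45, and the 10 genes at 1 or more became 29. The cause of these shifts was not tested, except that the filters change how many genes are tested. The late spermatid difference of 0.37 percentage points stayed above 0, at 0.05 to 0.64 leaving out 1 library and 0.28 with Prm1 and Prm2 alone.

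Of 1946 repeats over 116 named genes, 1893 kept direction and side, 7 passed the threshold and 46 changed sign, all in genes with an unadjusted p above 0.05. Under quantile normalization Prm1 was at −0.10, Tnp1 at 0.00, Tnp2 at 0.00, Smcp at −0.04, Ddx4 at 0.01 and Insl3 at 0.03. Under median centring Ddx4 was at 0.05 and Insl3 at 0.03. Under either exclusion Tnp1 at −0.08, Tnp2 at −0.01, Sycp3 at −0.03, Ddx4 at 0.02, Clu at 0.03, Hsd3b1 at 0.09, Insl3 at 0.27, Acta2 at 0.08, Cd74 at −0.16 and C1qa at 0.05. Leaving out 1 transplant library gave a log2FC of −0.05 to 0.07 for Acrv1, −0.06 to 0.09 for Sycp3, −0.04 to 0.06 for Ddx4, −0.01 to 0.08 for Prm1, −0.22 to 0.09 for Cyp17a1, −0.17 to 0.10 for Insl3, −0.05 to 0.15 for Adgre1, −0.05 to 0.08 for Tnp1, −0.05 to 0.11 for Tnp2, −0.38 to 0.02 for Hsd3b1, −0.14 to 0.13 for Cd74 and −0.08 to 0.41 for Cd3d. Of 560 repeats of list medians, 47 moved by over 1 SD between libraries, among them adipose (−1.14 with a pseudocount of 0.1, −1.42 with the stricter filter), erythrocyte (−0.12 without the filter), epididymis (−0.55 without control-FMT library 3, −0.52 without 2 and 3) and fibroblast and matrix (−0.44 with the stricter filter, −0.10 without control-FMT 2 and 3). The epididymis medians include Adam7 and Cst11, which passed the low-value filter only through control-FMT. Read depth is unknown, so what it limits could not be measured.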

Other observations

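A few further lists were measured in the transplant groups. Tissue kallikreins, serine proteases of Leydig cells in mouse testis, had a median log2FC of −0.21 over 9 genes tested. Of these, 8 lay below 0, beside 64.52% of all genes, and 0 had an unadjusted p under 0.05. Klk1b26 was at 6.18, 2.04 and 0.97 FPKM in AOS-FMT and at 5.02, 4.51 and 10.57 FPKM in control-FMT. The spread within AOS-FMT was as wide as the gap between the groups. Of 10 replication histone genes 7 lay below 0, beside 64.52% of all genes. Lower values at an unadjusted p under 0.05 were found for 2, beside 4.41% of all genes. Hist1h2ba, a histone H2B variant of testis, was at 0.99, 1.15 and 0.96 FPKM in AOS-FMT and at 2.2, 2.24 and 2 FPKM in control-FMT, with groups that did not overlap (log2FC −0.63, adjusted p = 0.81 by limma). The 17 piRNA pathway genes had a median of −0.02 and the 13 endothelial genes −0.06, each with 0 at an unadjusted p under 0.05. Pecam1, an adhesion protein of vessels, was at 0.85, 1.28 and 1.1 FPKM in AOS-FMT and at 1.22, 1.32 and 1.68 FPKM in control-FMT. Of 10 lymphocyte genes only Cd3d passed the filter, at 3.7, 3.7 and 4.25 FPKM in AOS-FMT and at 3.59, 4.82 and 1.93 FPKM in control-FMT.

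Among genes with a log2FC of 1 or more, picked out after their values were seen, Mrs2, a mitochondrial magnesium channel, was at 10.95, 15.12 and 8.93 FPKM in AOS-FMT and at 1.18, 6.18 and 3.59 FPKM in control-FMT. Slc12a4, a potassium-chloride cotransporter, was at 7.35, 8.72 and 8.57 FPKM in AOS-FMT and at 1.29, 3.91 and 4.93 FPKM in control-FMT. Neither overlapped between the transplant groups. The control libraries spanned that gap for both, with Mrs2 at 1.6, 11.27 and 3.68 FPKM and Slc12a4 at 1.81, 1.33 and 10.32 FPKM.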
